A study of Mus musculus with 62 samples.

Results

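The genes described here are 35 mouse genes whose products build ribosomes in the nucleolus. They were chosen by name for their roles in that pathway, and 34 of the 35 were found in the deposited count table, which has 37620 gene rows. No values of Noc2l, a partner of Noc3l, are analysed here. The series holds 62 RNA-seq libraries of mouse bone marrow cells. Of these, 24 are monocytic cells and 24 are progenitors of the same ER-Hoxb8 clones, so that each clone has 1 library in each state. ER-Hoxb8 cells are granulocyte-monocyte progenitors that are kept immature by an estrogen-dependent Hoxb8 fusion protein and mature when that protein is switched off. They were grown in medium with serum and stem cell factor (SCF). Every clone carries the fusion, and each state of a clone was sequenced once, so a clone and its library cannot be told apart. The other 14 libraries are sorted primary monocytes from mouse bone marrow, with 2 libraries each of nonclassical, intermediate and classical monocytes and of monocyte classes called 4, 3, 2 and 1. The labels give no definition of the classes, no strain and no age. They do not say whether the 2 libraries of a group came from different animals, so p-values in the primary cells measure only the spread between these libraries.

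Ribosome assembly begins when RNA polymerase I transcribes the ribosomal RNA precursor. Small nucleolar ribonucleoproteins (snoRNPs) then modify it: box C/D snoRNPs guide 2'-O-methylation and box H/ACA snoRNPs guide pseudouridylation. A large set of assembly factors folds, cuts and joins it with ribosomal proteins into the small and large subunits. The pathway is among the best known targets of the transcription factor Myc, and its output is high in growing and dividing progenitors of the blood. The members fall into 7 roles: box C/D snoRNP proteins, box H/ACA snoRNP proteins, a snoRNP chaperone, RNA polymerase I subunits, nucleolar chaperones and regulators, and the factors of small and of large subunit maturation.

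Total counts ran from 22853677 to 34542789 in the monocytic libraries of clones 1 to 13 and from 12626427 to 47314297 in their progenitors. In clones 15 to 25 they ran from 1827322 to 9120772 in monocytic libraries and from 362033 to 16506340 in progenitors, the lowest being the progenitor library of clone 21. The primary libraries held 21153002 to 35019854. Clone numbers thus split into 2 sets of unlike depth, and results for each set are given where they matter. Summed over 10 monocyte markers (Csf1r, Ly6c2, Lyz2 and others), monocytic libraries had 4548 to 60190 CPM, against 556 to 2775 CPM in progenitors. Lyz2 alone had a median of 27030 CPM in monocytic libraries, where the sum had a median of 31550 CPM. Ccr2, alone of the 10, was lower in monocytic cells in most clones (22 of 24). Summed over 10 neutrophil markers such as Ngp and Camp, monocytic libraries had 266 to 71220 CPM, against 46.8 to 2382 CPM in progenitors, so that the monocytic libraries also carried neutrophil RNA in widely varying amounts. All 9 neutrophil markers tested were higher in monocytic cells. CPM are counts scaled to a common library size, here with TMM factors, which set the libraries' typical gene equal.

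Promoters are shown because nearly all members moved together in the clones. Windows of 300 bases, from 250 before to 50 after the start of the gene, were found for 29 of the 34 measured members in the RefSeq table (build GRCm38.p6). The E-box CACGTG, the letters that Myc and Max dimers bind, stood in 6 of the 29 members (20.7%), namely Mybbp1a, Nop2, Pes1, Tsr1, Utp20 and Wdr43. It stood in 8.09% of all 27025 genes with a window and in 12.2% of the 8152 genes that were also tested in the clones. CCGGAAG, the core of ETS factor sites, stood in 9 members (31%), against 9.93% of all genes and 21.2% of tested genes. TCGCGAGA, letters common at promoters of housekeeping genes, stood in Nop58, Polr1c and Tsr1 (10.3%), against 1.13% of all genes and 2.69% of tested genes. Both strands were searched. Different motifs among these cannot overlap each other, while each of the last 2 can overlap its own reverse complement. A match is a run of letters and not a measured site. Shown are Tsr1 (all 3 motifs, 11:74897830-74898129, plus strand), Nop2 (the first 2, 6:125131633-125131932, plus strand), Wdr43 (the E-box, 17:71615965-71616264, plus strand), Nop58 (the third, 1:59684756-59685055, plus strand) and Dkc1 (X:75095604-75095903, plus strand), the member with the largest change in the clones, whose window holds none of them. Capitals mark the motif letters.
Tsr1: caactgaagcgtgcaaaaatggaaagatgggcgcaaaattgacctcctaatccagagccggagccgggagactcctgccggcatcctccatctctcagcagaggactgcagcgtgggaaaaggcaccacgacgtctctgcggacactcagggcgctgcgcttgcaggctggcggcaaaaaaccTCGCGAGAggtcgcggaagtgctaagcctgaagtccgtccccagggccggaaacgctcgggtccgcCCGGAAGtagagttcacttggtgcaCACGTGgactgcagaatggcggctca
Nop2: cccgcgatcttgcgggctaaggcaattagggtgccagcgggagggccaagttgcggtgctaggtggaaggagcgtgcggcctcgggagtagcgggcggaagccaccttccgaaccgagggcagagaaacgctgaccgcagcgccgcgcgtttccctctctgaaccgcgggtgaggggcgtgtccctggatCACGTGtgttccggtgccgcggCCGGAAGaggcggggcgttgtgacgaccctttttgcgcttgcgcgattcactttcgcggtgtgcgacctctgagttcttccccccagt
Wdr43: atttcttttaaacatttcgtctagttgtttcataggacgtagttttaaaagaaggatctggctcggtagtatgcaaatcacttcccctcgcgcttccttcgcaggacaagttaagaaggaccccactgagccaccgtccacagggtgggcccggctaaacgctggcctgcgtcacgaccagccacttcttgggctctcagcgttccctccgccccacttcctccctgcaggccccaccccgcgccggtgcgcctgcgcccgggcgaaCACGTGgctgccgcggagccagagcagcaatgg
Nop58: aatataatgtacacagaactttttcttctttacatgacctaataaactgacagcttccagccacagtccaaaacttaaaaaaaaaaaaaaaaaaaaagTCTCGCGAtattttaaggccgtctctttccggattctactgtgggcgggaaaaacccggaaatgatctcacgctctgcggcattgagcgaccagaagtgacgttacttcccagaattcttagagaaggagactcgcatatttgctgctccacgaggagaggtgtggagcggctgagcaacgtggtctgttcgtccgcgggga
Dkc1: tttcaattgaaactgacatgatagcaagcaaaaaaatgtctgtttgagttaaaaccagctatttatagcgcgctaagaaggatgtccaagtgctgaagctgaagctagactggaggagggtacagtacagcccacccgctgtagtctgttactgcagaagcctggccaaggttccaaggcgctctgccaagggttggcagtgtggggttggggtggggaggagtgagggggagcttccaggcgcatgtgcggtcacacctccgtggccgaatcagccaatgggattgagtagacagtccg

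Ribosome biogenesis genes were lower in monocytic cells than in the progenitors of the same clones. Of 34 members, 33 fell and none rose (edgeR quasi-likelihood test with clone as a block, Benjamini-Hochberg adjusted p under 0.05 over 11614 genes), where 40.1% of all genes tested were lower and 38.5% higher. The highest adjusted p among the 33 was 2.87e-05. The median log2 fold change of the members was -1.62, against -0.02 for all genes, and 29 members fell at least 2-fold and 12 at least 4-fold. A fall of at least 2-fold was called in 18.8% of all genes. In bulk RNA, fewer cells of a type and less of an RNA per cell cannot be told apart. With library totals in place of TMM factors, 68.1% of all calls were lower rather than 51% and the median of all genes moved to -0.45, and then all 34 members were lower with a median of -2.04.

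The members took 0.0657% to 0.593% of all counts in monocytic libraries (median 0.175%), against 0.762% to 1.28% in progenitors (median 0.89%), and the states did not overlap. In 26 members the monocytic library was the lower one in all 24 clones. For 11 members every monocytic library was below every progenitor library: Nop58, Ncl, Npm1, Gar1, Wdr12, Wdr43, Wdr75, Pes1, Nip7, Ddx21 and Gnl3. Neither this count nor that of 26 was made over all genes tested, so both describe the members only.

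**Figure D1:**
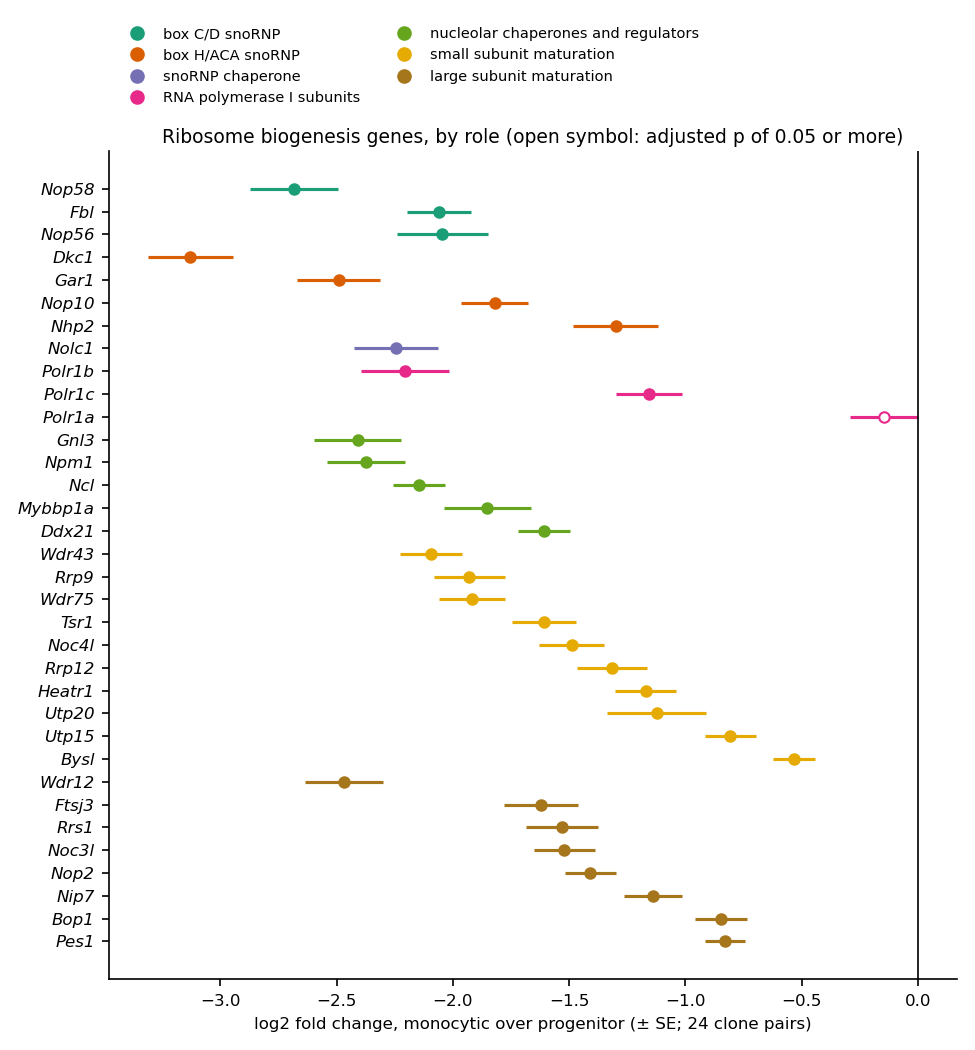
Log2 fold changes of the 34 members, monocytic cells over progenitors of the same clone, with bars of 1 SE (edgeR, 24 clone pairs), grouped by role. Values ran from -3.13 for Dkc1 to -0.15 for Polr1a, the one open symbol.

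The 3 box C/D proteins fell by about 4-fold or more. Nop58, one of the core proteins of the particle, had 10.9, 63 and 199 CPM in monocytic cells as the lowest, median and highest clone, against 258, 412 and 536 CPM in progenitors. Its log2 fold change was -2.68 ± 0.19 (SE, adjusted p = 5.19e-13 by edgeR), lower in 24 of 24 clones. Nop56, its partner, had the smallest change of the 3, with 6.95, 43.2 and 148 CPM in monocytic cells, against 124, 149 and 291 CPM in progenitors (log2 fold change -2.04 ± 0.20, adjusted p = 3.04e-10 by edgeR). Fbl, the methyltransferase fibrillarin, fell by 2.06 on the log2 scale. Small nucleolar RNA genes lie on exons of Nop56, Nop58, Ncl and Gnl3, so counts of those 4 could hold reads of both.

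The 4 box H/ACA proteins all fell, and they include the largest change of any member. Dkc1, the pseudouridine synthase dyskerin, had 5.64, 27.6 and 152 CPM in monocytic cells, against 103, 273 and 347 CPM in progenitors. The log2 fold change was -3.13 ± 0.18 (adjusted p = 1.18e-14 by edgeR), and it was lower in 24 of 24 clones, though the highest monocytic clone was above the lowest progenitor library. Gar1, a structural protein of the particle, fell by 2.49 and Nop10 by 1.82 on the log2 scale. Nhp2, which binds the guide RNA, had the smallest change, with 31.7, 88.3 and 180 CPM in monocytic cells, against 115, 235 and 418 CPM in progenitors. Its log2 fold change was -1.30 ± 0.18 (adjusted p = 2.84e-07 by edgeR), and in 3 clones (17, 19 and 22) the monocytic library was the higher one. Nolc1, a chaperone that moves snoRNPs to the nucleolus, had 12.9, 57 and 198 CPM in monocytic cells, against 175, 299 and 393 CPM in progenitors (log2 fold change -2.24 ± 0.18, adjusted p = 6.56e-12 by edgeR).

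The 3 subunits of RNA polymerase I had changes of very different size. Polr1b, the second largest subunit, had 2.16, 15.5 and 61.3 CPM in monocytic cells, against 48.6, 71.7 and 145 CPM in progenitors (log2 fold change -2.21 ± 0.19, adjusted p = 3.11e-11 by edgeR). Polr1c, shared with RNA polymerase III, fell by 1.16. Polr1a, the largest and catalytic subunit, was the 1 member that did not pass. It had 32.2, 61.9 and 182 CPM in monocytic cells, against 29.5, 73.7 and 146 CPM in progenitors, and the states overlapped widely (log2 fold change -0.15 ± 0.15, adjusted p = 0.368 by edgeR). It was lower in 13 of 24 clones and higher in 11. In clones 1 to 13 alone its log2 fold change was 0.14, and with library totals it was -0.58 and passed. An antisense gene overlaps 185 of its 11871 exon bases and the counting is not stated to use strand.

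Among nucleolar chaperones and regulators, all 5 members fell. Gnl3, the GTP-binding protein nucleostemin, changed most, with 5.64, 36.4 and 122 CPM in monocytic cells, against 136, 194 and 278 CPM in progenitors (log2 fold change -2.41 ± 0.19, adjusted p = 3.58e-12 by edgeR). Ncl, nucleolin, which binds the nascent ribosomal RNA, had 213, 427 and 996 CPM in monocytic cells, against 1278, 2162 and 2923 CPM in progenitors. Its fall of 2.14 on the log2 scale had the smallest adjusted p of all members (9.46e-16 by edgeR). Npm1, the nucleolar chaperone nucleophosmin, fell by 2.37, and its counts may share reads with processed copies of the gene elsewhere in the genome. Mybbp1a, a Myb-binding nucleolar protein, fell by 1.85. Ddx21, an RNA helicase, changed least, with 38.8, 107 and 218 CPM in monocytic cells, against 219, 353 and 576 CPM in progenitors (log2 fold change -1.61 ± 0.11, adjusted p = 3.03e-13 by edgeR).

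All 10 factors of small subunit maturation fell, with a median log2 fold change of -1.40. Wdr43, a part of the complex that couples transcription of ribosomal RNA to its processing, changed most: 12.2, 47.9 and 116 CPM in monocytic cells, against 161, 208 and 276 CPM in progenitors (log2 fold change -2.09 ± 0.13, adjusted p = 5.89e-14 by edgeR). Bysl, which acts late on the precursor of the small subunit, changed least: 16.6, 30.9 and 55.1 CPM in monocytic cells, against 39.7, 50.3 and 71.1 CPM in progenitors (log2 fold change -0.53 ± 0.09, adjusted p = 5.39e-06 by edgeR). It was lower in 20 of 24 clones, and 361 of its 3854 exon bases are shared with Ccnd3 on the other strand. Log2 fold changes of the others were -1.93 for Rrp9, which binds the U3 snoRNA, -1.92 for Wdr75, -1.61 for Tsr1, -1.49 for Noc4l, -1.32 for Rrp12, -1.17 for Heatr1, -1.12 for Utp20 and -0.81 for Utp15. Tsr1 shares 1240 exon bases with Srr on the other strand, so its counts are uncertain.

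All 8 factors of large subunit maturation that were measured fell, with a median of -1.47. The trimeric complex of Pes1, Bop1 and Wdr12, which processes the large subunit precursor, held both the largest and the smallest change of the role. Wdr12 had 5.75, 25.5 and 79.3 CPM in monocytic cells, against 127, 151 and 188 CPM in progenitors (log2 fold change -2.47 ± 0.17, adjusted p = 2.77e-13 by edgeR). Pes1 had 44.9, 81.1 and 109 CPM in monocytic cells, against 113, 144 and 173 CPM in progenitors (log2 fold change -0.83 ± 0.09, adjusted p = 1.37e-09 by edgeR). The states of Pes1 still did not overlap. Bop1 was close to it at -0.85, and no test was made of the difference between genes. The other changes were -1.62 for the methyltransferase Ftsj3, -1.53 for Rrs1, -1.52 for Noc3l, -1.41 for Nop2, a methyltransferase of the large ribosomal RNA, and -1.14 for Nip7.

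The size of the drop varied among clones mainly on the monocytic side. The mean log2 CPM of the 34 members was 5.32 ± 0.63 in monocytic libraries and 7.06 ± 0.17 in progenitors (SD, n = 24 each), and it was lower in the monocytic library of 24 of 24 clones. The difference ran from -3.19 to -0.74 in clones 15 to 25 and from -1.99 to -1.41 in clones 1 to 13. Gene by gene, at least 29 of the 34 members were lower in each clone, with 29 in clone 24 and 31 in clone 22. Monocytic libraries of clones 20 and 21 were lowest, at 3.78 and 3.64, and those of clones 22, 17 and 24 were highest, at 6.57, 6.2 and 6.02. Those 5 libraries are all shallow, at 2416592 to 4654429 counts. Other RNAs differed with them. Myc was at 3.47 and 2.87 CPM in monocytic clones 20 and 21, against 279, 176 and 75.3 CPM in clones 22, 17 and 24. Mxd1, a Max partner that opposes Myc, was at 1835 and 1874 CPM in clones 20 and 21, against 41.2, 55.7 and 66.3 CPM in the other 3. Ngp, a neutrophil granule gene, was at 17360 and 22450 CPM, against 25.6, 77.6 and 686 CPM. It reached 46120 CPM in another monocytic library, where the members' mean log2 CPM was above that of clones 20 and 21. Markers of myeloid progenitors differed too: Mpo, a granule enzyme of such progenitors, was at 43 and 19.8 CPM in clones 20 and 21, against 16790, 6345 and 1928 CPM in clones 22, 17 and 24, and Myb was at 49.1 and 44.9 CPM, against 673, 300.1 and 71.9 CPM. Over all monocytic libraries the 9 progenitor markers kept summed to 130 to 24620 CPM, against 10340 to 22710 CPM in progenitors. The sums thus overlapped. Of the 9, Elane was higher in monocytic cells in 20 of 24 clones and Prtn3 in 13. Mpo, Ctsg, Kit, Cd34, Flt3, Myb and Gata2 were lower in most clones. Only Cd34 and Flt3 did not overlap between the states. They had at most 116 and 1.92 CPM in monocytic cells, against at least 901 and 91.8 CPM in progenitors. The order of the progenitor marker sum was not the members' order throughout: it was 334 CPM in monocytic clone 25, where the members' mean log2 CPM was 5.74, and 16080 CPM in clone 19, where it was 5.45. The part of the neutrophil RNA, the progenitor RNA and the depth in the members' levels was not tested.

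**Figure D2:**
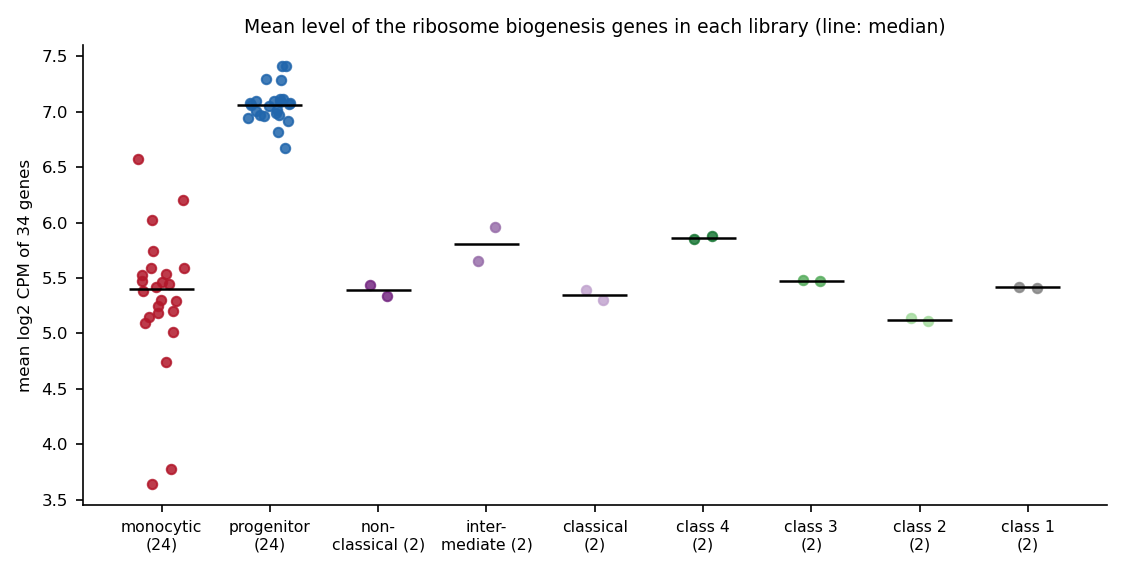
Mean log2 CPM of the 34 members in each of the 62 libraries, by group, with a line at the group's median. Monocytic libraries spread from 3.64 to 6.57 and progenitors from 6.67 to 7.41, while the 14 primary libraries lie between 5.11 and 5.96.

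Asked separately, the fall was called for 31 members in clones 15 to 25 and for 33 in clones 1 to 13, with a median of -1.69 in both. A test of the difference between the sets called 2 of 34 members (edgeR state by set term), where 23.7% of all genes were called. Nhp2 was at -0.69 in clones 15 to 25, where it did not pass (adjusted p = 0.0526 by edgeR), and fell by 1.72 in clones 1 to 13. Utp20 changed the other way, falling by 1.78 in clones 15 to 25 and by 0.60 in clones 1 to 13. With library totals the difference was called for Nhp2 and no longer for Utp20.

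By r over all 24 clones, levels in the 2 states of a clone correlated about as often in the members as in all genes. A difference among clones beyond the state was called for 1 member of 34, Noc3l (edgeR test of all clone terms, adjusted p = 0.014), where 11.7% of all genes were called. That call was lost without clone 21, whose progenitor library holds 2 counts of Noc3l. An unadjusted p under 0.05 was found for 7 members (20.6%), against 27.2% of all genes. Across the 24 clones, the progenitor and the monocytic level of a gene correlated for 3 members, Noc3l (r = 0.70, rho = 0.39), Rrs1 (r = 0.63, rho = 0.25) and Ncl (r = 0.56, rho = 0.57), by a permutation test with adjusted p of 0.018, 0.0439 and 0.0481. That is 3 of 34, where 8.3% of all genes were called. The median r was 0.19 over the members and 0.19 over all genes. Without the clones farthest from the median progenitor level, r was 0.41, 0.46 and 0.56 in the same order. None of the 3 passed on ranks, after centring on the clone set or without clone 21. The adjusted p of rho was 0.287, 0.545 and 0.0771 in the same order. Within clones 1 to 13, r was 0.31, -0.21 and -0.12, and within clones 15 to 25 it was 0.77, 0.63 and 0.73. Of all 11614 genes, 432 passed on ranks, 131 after centring and 893 without clone 21, while no member did.

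Genes of the same pathway outside the 35 moved in the same direction. All 12 exosome genes, which trim ribosomal RNA ends, were lower in monocytic cells (median log2 fold change -1.18), among them Exosc2 at -2.23 and Dis3 at -1.75. Of 46 other large subunit factors 40 fell and none rose (median -1.11, with Rrp15 at -2.31 and Ppan at -2.19), and of 35 other small subunit factors 32 fell and none rose (median -1, with Rcl1 at -2.92 and Nat10 at -2.05). Of 11 snoRNP assembly factors 10 fell (median -1.5, Ruvbl1 at -2.22, Naf1 at -1.91). Of 8 further genes of RNA polymerase I and its factors 6 fell, Polr1e by 1.49 and Taf1d by 1.47. These lists were drawn up with earlier results of these data known.

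Ribosomal protein genes and genes of cell division had smaller median changes. Of 74 cytosolic ribosomal protein genes 65 were lower and none higher (median -0.85; Rpl21, the largest, at -2.35 and Rpl23a at -1.70). Of 39 mitochondrial ribosomal protein genes 31 were lower (median -0.73; Mrps31 at -1.84 and Mrps5 at -1.44). Many ribosomal protein genes have processed copies that can share reads. Of 25 genes of S phase and mitosis 21 were lower and none higher (median -0.79; the helicase subunits Mcm7 at -1.81 and Mcm6 at -1.61), with Top2a, a topoisomerase of dividing cells, at -0.62. Mki67, the common marker of dividing cells, did not pass (415.7 CPM in monocytic cells and 381.9 CPM in progenitors as medians, log2 fold change 0.19, adjusted p = 0.5 by edgeR).

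The Myc network moved in both directions. Myc had 2.87, 41.3 and 279 CPM in monocytic cells, against 148, 342 and 556 CPM in progenitors, and was lower in 24 of 24 clones (log2 fold change -3.00 ± 0.32, adjusted p = 1.86e-09 by edgeR). Mycn, its close relative, had 0, 0.226 and 1.76 CPM, against 3.17, 56.3 and 85.4 CPM. Mxd1 was higher in 24 of 24 clones, with 41.2, 335 and 1874 CPM in monocytic cells, against 10.8, 21 and 76.3 CPM in progenitors (log2 fold change 3.69 ± 0.24, adjusted p = 1.07e-13 by edgeR). Max, the partner of both, rose by 0.68 on the log2 scale. Of 10 genes of this list tested, 6 were higher and 3 lower, and Mxd4 fell by 0.38.

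Over the 9 groups, progenitors stood apart. The median level was highest in progenitors for 30 of 34 members and lowest in class 2 for 13. The exceptions were Fbl, highest in class 3, and Nop56, Bysl and Noc4l, highest in class 4. Fbl had 56.6 and 55.9 CPM in the lowest primary group, class 2, above every monocytic library (0.434, 8.23 and 16.5 CPM as lowest, median and highest) and every progenitor library (8.75, 35.6 and 44.7 CPM). For 6 members the median in monocytic clones was above that of each primary group. Polr1a was at 61.9 CPM, against 17.1 to 34.1 CPM, Utp20 at 27.3 CPM, against 3.65 to 16.7 CPM, and Ddx21 at 107 CPM, against 43.4 to 72.6 CPM. Mybbp1a, Polr1c and Noc3l were closer, at 133, 43.6 and 12.2 CPM, against at most 122, 38.5 and 11.7 CPM in the same order. Clones and primary cells differ in culture and sorting, so these levels are a description. Per kilobase of exon, Npm1 had the highest median of the members in progenitors, at 367 CPM per kb. Nop10 followed at 241, Ncl at 212 and Nhp2 at 205, and Utp20 was lowest at 5.54 CPM per kb. Lengths joined all exons of a gene in a later annotation, with 10188 bases for Ncl and 2665 for Npm1. Such a length can exceed that of any 1 transcript, so this order holds for these lengths only.

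**Figure D3:**
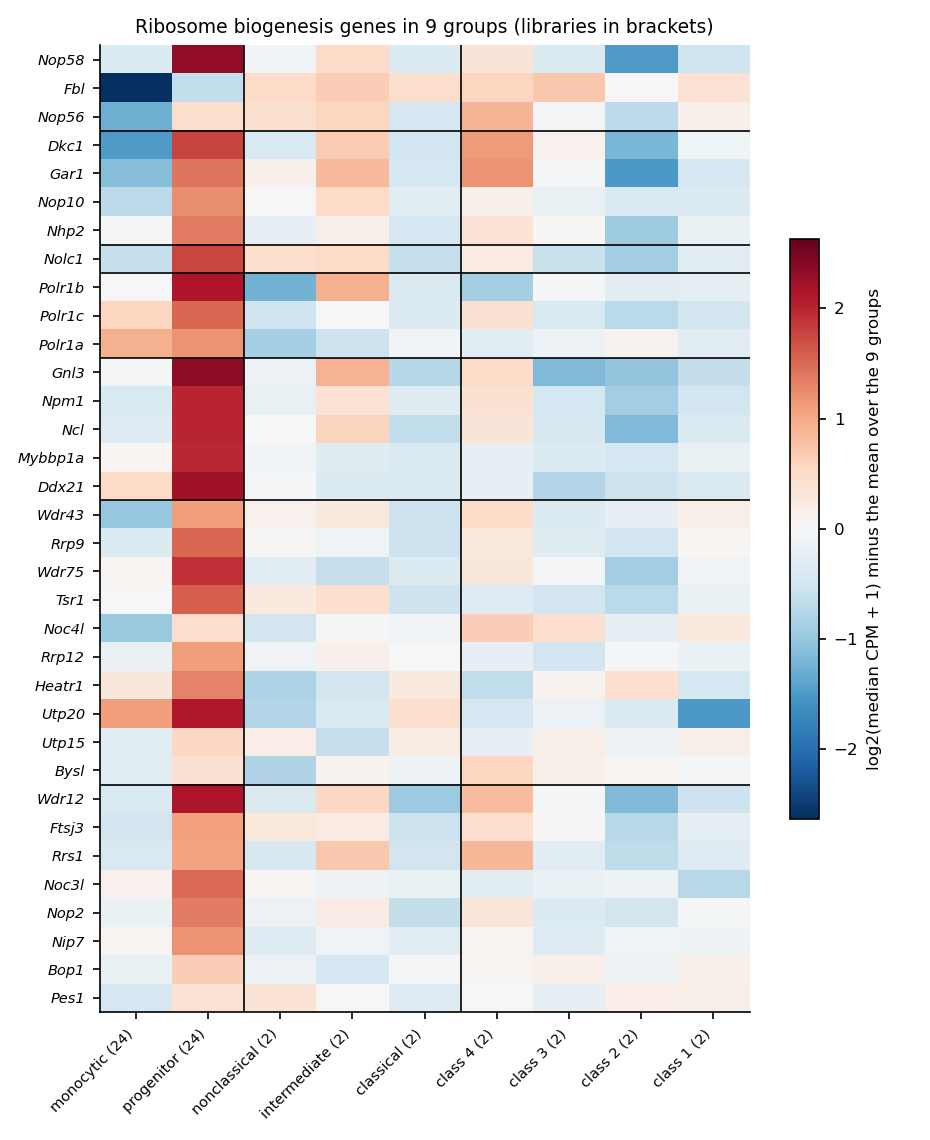
Level of each member in 9 groups, as log2 of the median CPM plus a pseudocount of 1, minus the gene's mean over the groups; rows are ordered by role. Most rows are highest in progenitors, Fbl is lowest in monocytic clones and lower in progenitors than in each primary group, and class 2 is lowest for 13 members.

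**Figure D4:**
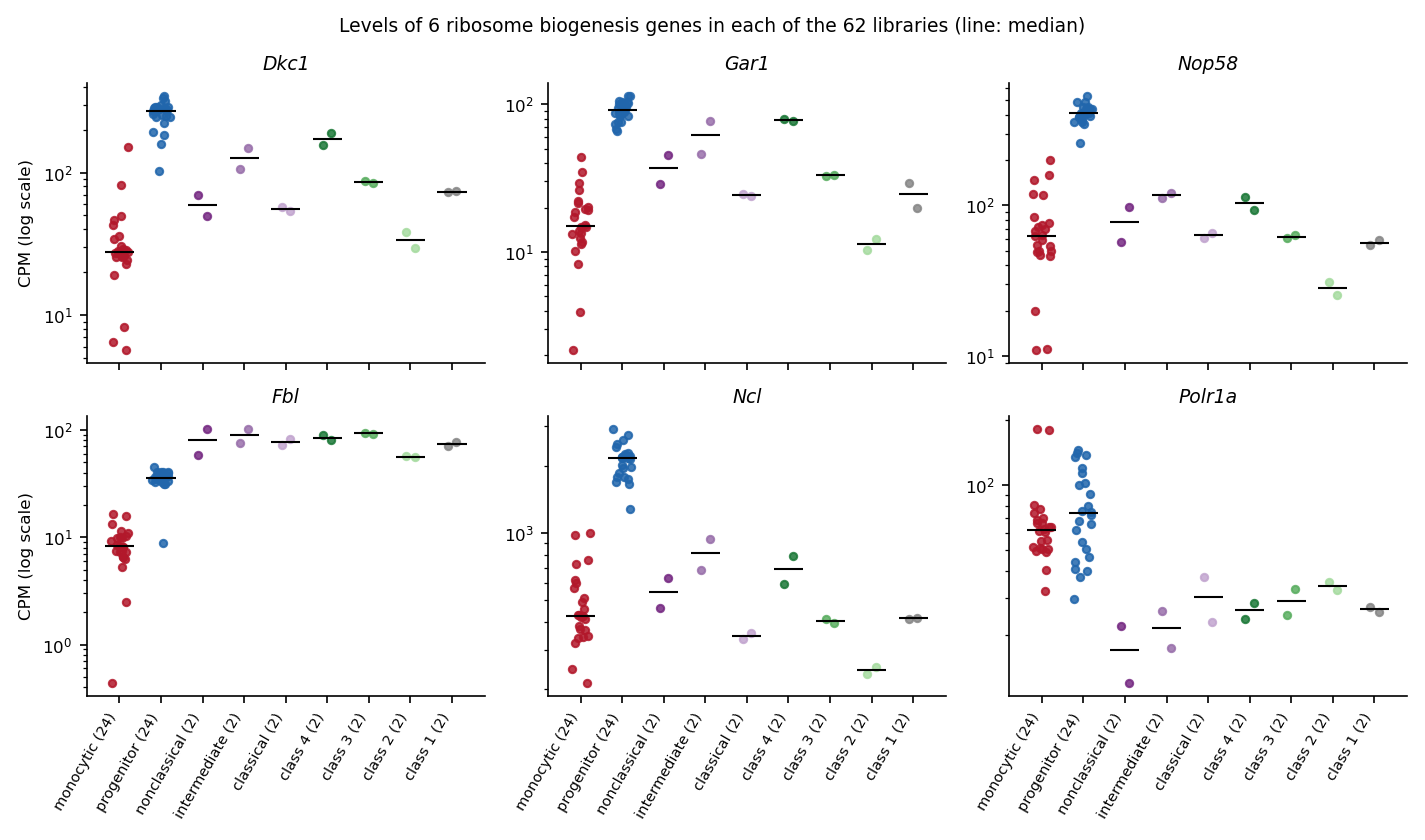
CPM of 6 members in each of the 62 libraries on log axes, with a line at each group's median. Dkc1, Gar1, Nop58 and Ncl have lower medians in monocytic than in progenitor libraries and are higher in class 4 than in class 2. Fbl is higher in the primary cells than in the clones. The clone states overlap for Dkc1, Fbl and, most widely, Polr1a.

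Between nonclassical, intermediate and classical monocytes no member passed the threshold by edgeR. In nonclassical over intermediate, nonclassical over classical and intermediate over classical monocytes, edgeR called 0% (0 genes), 5.82% and 2.11% of 13944 genes. Members with an unadjusted p under 0.05 numbered 5 (14.7%), 5 (14.7%) and 14 (41.2%), against 1710 (12.3%), 3260 (23.4%) and 3018 (21.6%) of all genes. DESeq2 called 3, 6 and 14 members, in the first comparison all lower and in the other 2 all higher, and 1212, 3357 and 3103 genes in all. Its 14 in intermediate over classical monocytes included the snoRNP proteins Dkc1, Gar1, Nhp2, Nop10, Nop56 and Nop58, with Ncl, Npm1, Gnl3, Rrs1, Wdr12, Wdr43, Ftsj3 and Tsr1. The median log2 fold change of the members was -0.35, 0.29 and 0.60, against -0.05, 0.11 and 0.12 for all genes. These 3 comparisons share libraries.

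The 2 highest and the 2 lowest log2 fold changes of each comparison are given here. In intermediate over classical monocytes, Gnl3 had 77.8 and 64.2 CPM in intermediate monocytes, against 21.2 and 22.3 CPM in classical ones (log2 fold change 1.77 ± 0.31, adjusted p = 0.0615 by edgeR), and the 2 groups did not overlap. Wdr12 had 52.6 and 46.8 CPM in intermediate, against 17.7 and 16.1 CPM in classical monocytes, also without overlap. Of 34 members, 17 were higher and 5 lower in intermediate monocytes without overlap. It was not counted over all genes. Utp20 and Utp15 were at the low end of that comparison, at -0.83 and -0.76. In nonclassical over classical monocytes the ends were Nolc1 at 1.09 and Ftsj3 at 0.90, and Utp20 at -1.21 and Heatr1 at -1.11. Nolc1 shows how little the libraries fix: 54.9 and 187.9 CPM in nonclassical monocytes, against 58.6 and 55.7 CPM in classical ones. In nonclassical over intermediate monocytes the ends were Utp15 at 0.78 and Pes1 at 0.36, and Polr1b at -2.26 ± 2.13 and Rrs1 at -1.12. Polr1b had 0 counts in 1 of the 2 nonclassical libraries.

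Markers of other cells and of progenitors differed between the subset libraries. Markers of myeloid progenitors summed to 292 and 689 CPM in nonclassical, 4638 and 13250 CPM in intermediate and 839 and 1169 CPM in classical monocytes. The 10 monocyte markers summed to 15290 and 24220 CPM in nonclassical, 11630 and 12310 CPM in intermediate and 42830 and 46200 CPM in classical monocytes. Intermediate monocytes, which had the highest median change of the members over classical ones, thus had the most progenitor and the least monocyte marker RNA. Mast cell and basophil markers summed to 1805 and 7214 CPM in nonclassical and 4145 and 8896 CPM in intermediate, against 12.9 and 19.4 CPM in classical monocytes. B cell markers summed to 1862 and 2054, 372 and 425, and 33 and 36 CPM in the same order. Genes of S phase and mitosis were lower in nonclassical than in classical monocytes (11 of 25 called, median -2.20), and Myc was at 188 and 186 CPM in nonclassical, 139 and 188 CPM in intermediate and 24.8 and 33.3 CPM in classical monocytes. Their part in the members' levels was not tested.

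Among the monocyte classes, class 4 had the highest and class 2 the lowest levels of the members. The members took 0.309% and 0.33% of all counts in class 4, 0.206% and 0.207% in class 3, 0.137% and 0.139% in class 2 and 0.179% and 0.186% in class 1. The largest contrast was class 4 over class 2: 20 members were higher and 1 lower (edgeR), where 19.5% of 13686 genes were higher and 21.4% lower. The median log2 fold change of the members was 0.70, against 0.02 for all genes. The 20 were Gar1, Dkc1, Wdr12, Nop58, Nop56, Gnl3, Rrs1, Ncl, Npm1, Nhp2, Wdr75, Ftsj3, Polr1c, Nolc1, Noc4l, Nop2, Rrp9, Wdr43, Fbl and Nop10, and the 1 was Heatr1. Leaving out 1 library at a time, the median log2 fold change of the members was 0.62 to 0.71.

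The 2 largest changes were those of the box H/ACA proteins Gar1 and Dkc1. Gar1 had 79 and 76.9 CPM in class 4, against 10.3 and 12.2 CPM in class 2 (log2 fold change 2.73 ± 0.24, adjusted p = 0.000101 by edgeR). Dkc1 had 157 and 190 CPM in class 4, against 38.4 and 29.3 CPM in class 2 (log2 fold change 2.29 ± 0.18, adjusted p = 5.92e-05 by edgeR). Nop58 had 113 and 93.2 CPM, against 31 and 25.4 CPM, and Wdr12, of the large subunit, 64.2 and 55.9 CPM, against 14.3 and 14.7 CPM. In none of these 4 did the classes overlap. With 2 libraries per class this was common: of 34 members, 24 were higher and 4 lower in class 4 without overlap. It was not counted over all genes. All 3 box C/D and all 4 box H/ACA proteins were among the 20 that rose, with Fbl and Nop10 the smallest changes of the 20. Heatr1, a small subunit factor that also acts on transcription by RNA polymerase I, ran against them with 27.8 and 20 CPM in class 4, against 49.3 and 54.2 CPM in class 2 (log2 fold change -1.18 ± 0.21, adjusted p = 0.0034 by edgeR). It shares 155 of its 7828 exon bases with Lgals8 on the other strand.

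In class 4 over class 1, 13 members were higher and none lower, where 10.2% of all genes were higher and 15% lower. They were Gar1 at 1.68, Wdr12 at 1.41, Rrs1 and Dkc1 at 1.25, Gnl3 at 1.17, Polr1c, Npm1, Nop58, Nop56, Ncl, Ftsj3, Nhp2 and Nolc1, the last at 0.49. Without either class 1 library, fewer members and fewer of all genes were called. The median log2 fold change of the members was then 0.52 (without replicate 1) or 0.49 (without replicate 2), against 0.46 with both. In class 4 over class 3, 12 were higher and 1 lower, where 13% were higher and 15.7% lower. Gnl3 led at 1.71 (45.7 and 60.3 CPM in class 4, against 16.7 and 15.6 CPM in class 3), followed by Gar1 at 1.23, Rrs1 at 1.19 and Dkc1 at 1.01; Nop56, Npm1, Wdr12, Wdr43, Nolc1, Ncl, Nop58 and Ddx21 were also higher, and Heatr1 was lower at -0.77, a call lost without any 1 library of class 1, 2 or 3. Without a class 3 library the median log2 fold change of the members was 0.44 (replicate 1) or 0.42 (replicate 2), against 0.43 with both.

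In class 2 over class 1, 6 members were lower and 1 higher, where 5.95% of all genes were lower and 3.34% higher. The 6 were the snoRNP proteins Gar1 at -1.05, Dkc1 at -1.04, Nop58 at -0.93, Nop56 at -0.75 and Nhp2 at -0.66, and Ncl at -0.70. Heatr1 was higher at 1.01, with 49.3 and 54.2 CPM in class 2, against 28.4 and 25.8 CPM in class 1. Leaving out any 1 library of class 3, 2 or 1 lost the Heatr1 call each time. The median log2 fold change of the members was then -0.34 to -0.26, against -0.31 with all libraries. In class 3 over class 2, 10 members were higher and 1 lower, where 11.8% were higher and 12.4% lower. They were Gar1 at 1.5, Dkc1 at 1.28, Wdr12 at 1.13, Nop58 at 1.08, Nhp2, Ftsj3, Ncl, Fbl, Noc4l and Nop56, with Pes1 lower at -0.50. The Pes1 call was lost with library totals and without any 1 library of class 1, 2 or 3. Without a library of class 2 or 3 the median log2 fold change of the members was 0.22 to 0.25, against 0.21 with all libraries. In class 3 over class 1 only Wdr43 was called, lower at -0.52 (adjusted p = 0.0477 by edgeR), where 7.94% of all genes were lower and 5.44% higher; this call was lost with the replicate number as a block, with no filter and with library totals. With library totals 3 members were higher and 0 lower, with no filter 1 was higher and 0 lower, and with DESeq2 1 was higher and 2 lower. Without any 1 library of class 1, 2 or 3, fewer of all genes were called too, in each class comparison. The 6 class comparisons share libraries, and each p was adjusted within its own comparison.

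**Figure D5:**
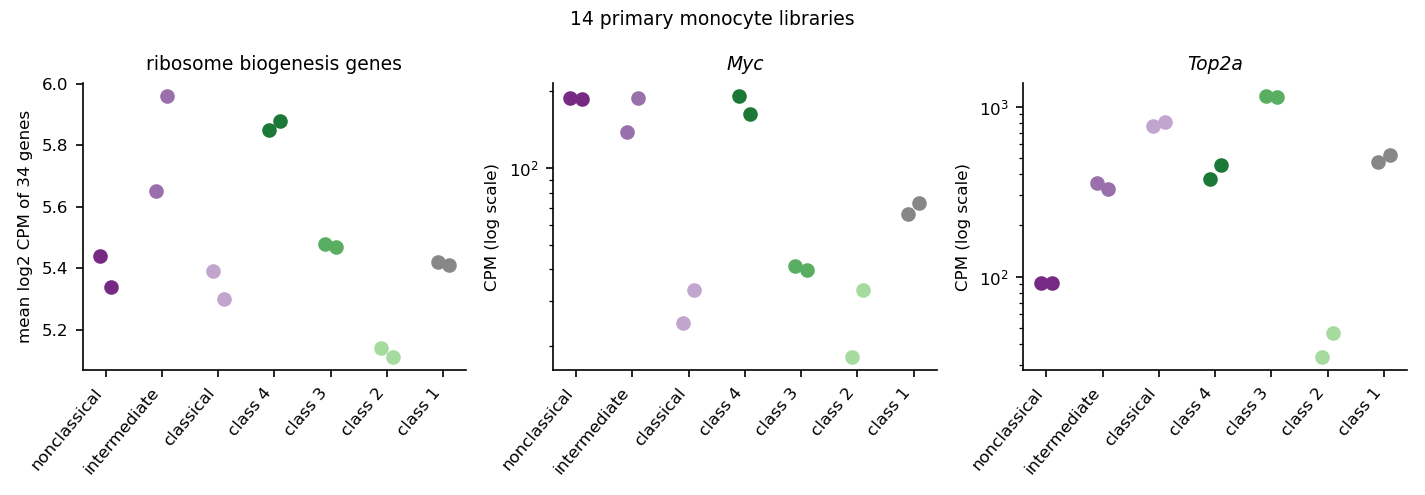
The 14 primary libraries, 2 per group: the mean log2 CPM of the 34 members, and CPM of Myc and Top2a on log axes. Class 3 has the highest Top2a (1154 and 1140 CPM) and members near class 1, while class 4 has the highest members of the classes with Top2a at 376 and 454 CPM; class 2 is lowest of the classes for the members and for Top2a.

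Levels of the members and of cell division genes did not follow the same order over the classes. All 25 genes of S phase and mitosis were higher in class 4 than in class 2 (median 3.28) and in class 3 than in class 2 (median 3.93), and 20 of the 25 were higher in class 3 than in class 1 (median 0.98), where no member was called higher by edgeR with TMM factors and 3 were with library totals. In class 4 over class 3, 15 of the 25 were lower (median -0.78) while 12 members were higher. Top2a was at 376 and 454 CPM in class 4, 1154 and 1140 CPM in class 3, 33.4 and 46.3 CPM in class 2 and 472 and 517 CPM in class 1. Mki67 was at 176 and 190 CPM in class 4, 449 and 592 CPM in class 3, 28.5 and 37.2 CPM in class 2 and 198 and 178 CPM in class 1. Myc was at 191 and 163 CPM in class 4, 41.2 and 39.9 CPM in class 3, 18.1 and 33.2 CPM in class 2 and 66.3 and 72.9 CPM in class 1. The part of cell division and of Myc in the members' levels was not tested.

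Some other genes of the pathway were also higher in class 4 than in class 2, where 19.5% of all genes were higher and 21.4% lower. Higher were 9 of 12 exosome genes and 6 of 11 snoRNP assembly factors (medians of 0.81 and 0.93). So were 16 of 46 other large and 10 of 35 other small subunit factors (medians of 0.31 and 0.31). In the last 2 lists 2 and 3 genes were lower. Of 76 cytosolic ribosomal protein genes 26 were higher and 1 lower, with a median of 0.36.

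The class libraries also differed in markers of other cells. Class 4 had neutrophil markers summing to 32310 and 42410 CPM, against 4862 and 8510 CPM in class 3, 1912 and 2101 CPM in class 2 and 1148 and 1879 CPM in class 1. Markers of myeloid progenitors summed to 10150 and 11270 CPM in class 4, 6573 and 8178 CPM in class 3, 168 and 200 CPM in class 2 and 852 and 1160 CPM in class 1. Class 4 also held erythroid markers at 4141 and 5184 CPM, against 2.09 to 120 CPM in the other classes, and B cell markers at 2258 and 2774 CPM, against 54.1 to 368 CPM. Mast cell and basophil markers summed to 1265 and 2304 CPM in class 4, 401 and 934 CPM in class 3, 4.11 and 9.49 CPM in class 2, where Cpa3, Ms4a2, Prss34 and Fcer1a were at 0, and 14 and 24.7 CPM in class 1. Monocyte markers were lowest in class 4 (17940 and 17990 CPM) and highest in class 2 (66870 and 71090 CPM), and 8 of 10 were lower in class 4 than in class 1. The part of these other cells in the members' levels was not tested.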

How the data were processed

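RNA-seq libraries of 24 ER-Hoxb8 clones in 2 states and of 14 primary monocyte samples were analysed as 1 table of raw counts per gene, deposited by the authors. The submitters' processing notes list HTSeq 0.6.0, STAR 2.7.3a and build mm9; the strand setting is not given in the sources used here. The table names genes by Ensembl ID and symbol, and 34 of the 35 genes matched by symbol. One column (clone 14) had no sample and was not used. Genes were kept by filterByExpr (minimum count 10), scaled by TMM factors and tested with edgeR 4.0.16 (quasi-likelihood F test, two-sided) in R 4.3.3, Benjamini-Hochberg adjustment over all genes tested, threshold 0.05. The clone comparison had clone as a block, because the series design pairs the states of a clone; SE is the log2 fold change divided by the square root of F. The 6 subset and 8 class libraries had a fit each, without a block. Correlations used log2 CPM (prior count 2) with 100000 permutations (smallest p 1e-05). The fits were run on simulated counts with 1 common spread per fit and no differences among clones. Of the fits, only the clone comparison had limits that it had to meet.

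Alternatives were RLE factors, library totals, DESeq2 1.42.0, no filter, other blocks, each clone set and libraries left out. The members, gene lists, tests and alternatives were chosen with earlier results of these data known. All members are named, with values by clone for those of largest and smallest change in each role; in the primary comparisons, members past the threshold or, failing that, the 2 highest and the 2 lowest; and in the other lists the 2 largest changes, any called against its list, and Myc, Mycn, Max, Mxd1, Mki67 and Top2a. Clones 1 to 13 and 15 to 25 are not labelled as batches. The 2 libraries of a group shared only a replicate number. Exon lengths and overlaps came from a later annotation (GRCm38), used for names and lengths only, and promoters from RefSeq. Counts, not molecules, were available, so CPM carry PCR duplicates.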

Additional observations from a re-analysis of the deposited data

Results flagged for a closer look

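The change from progenitor to monocytic cells differed between clones 15 to 25 and clones 1 to 13 for Nhp2 and Utp20, by a test of the difference itself (edgeR state by clone set term). For Nhp2 the difference of the log2 fold changes, clones 15 to 25 minus clones 1 to 13, was 1.0 (SE 0.306, adjusted p = 0.019 by edgeR). Nhp2 had lowest, median and highest levels of 31.7, 126 and 180 CPM in monocytic cells and 115, 144 and 406 CPM in progenitors of clones 15 to 25. In clones 1 to 13 it had 70.7, 86.4 and 103 CPM in monocytic cells and 211, 290 and 418 CPM in progenitors. For Utp20 the difference was -1.19 (SE 0.358, adjusted p = 0.0177 by edgeR), with 2.87, 35.8 and 60.8 CPM in monocytic cells and 39.5, 103 and 143 CPM in progenitors of clones 15 to 25. In clones 1 to 13 Utp20 had 13.5, 25.8 and 44.5 CPM in monocytic cells and 20.2, 38.7 and 65.8 CPM in progenitors. In both genes the medians of the 2 sets were farther apart in progenitors than in monocytic cells. With library totals the call remained for Nhp2 and was lost for Utp20. The depth of the 2 sets also differs, and its part was not tested.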

How the results depend on the processing

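The fall of the members in monocytic cells held under RLE factors, library totals, DESeq2, no filter, no replicate block, either clone set and without clone 21: 31 to 34 members were lower and 0 higher, with medians from -2.04 to -1.55. Without the replicate block 33 were lower, with a median of -1.55. Single genes that changed side were Polr1a, at 0.14 in clones 1 to 13 alone and called lower at -0.58 with library totals, and Nhp2 and Bysl, at -0.69 and -0.33 and no longer called in clones 15 to 25 alone; the cause was not tested. Members whose change differed between clone sets numbered 1 with library totals, 6 with DESeq2 and 5 without clone 21, and Nhp2 was among them under each of these; Utp20 was lost with library totals. Members with a clone effect numbered 2 with RLE factors or library totals, 8 with DESeq2 and 0 in clones 1 to 13, in clones 15 to 25 or without clone 21. Shares of all genes called (23.7% for the set difference, 11.7% for the clone effect) were not counted again under these alternatives. Member counts there thus have no share beside them. No member's levels correlated across clones (0 called) on ranks, after centring on the clone set or without clone 21. Of all 11614 genes, 432, 131 and 893 were called in the same order.

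With DESeq2, members called were 14 in intermediate over classical, 6 in nonclassical over classical and 3 in nonclassical over intermediate monocytes. In class 3 over class 1 they were 3 with library totals (all higher) or DESeq2 (1 higher, 2 lower) and 0 with the replicate block. Leaving out 1 library at a time leaves a group with 1 library that is assumed to vary like the others. The members' median log2 fold change was then 0.52 to 0.81 in intermediate over classical and 0.18 to 0.28 in nonclassical over classical. It was -0.5 to -0.04 in nonclassical over intermediate monocytes. It gave 1 to 9 in class 2 over class 1, 0 to 3 in class 3 over class 1, 4 to 16 in class 4 over class 1, 5 to 13 in class 3 over class 2, 14 to 21 in class 4 over class 2 and 6 to 16 in class 4 over class 3. The replicate numbers of the subsets correlated at 0.18 to 0.384 and those of the classes at -0.0106 to 0.0728, as deviations from the group means in log2 CPM; the block changed no other count by more than 1.5 times.

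Depth is lowest in clones 15 to 25, the classes and subsets have 2 libraries per group, and RNA of other cells was not separated from that of monocytes.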
